A study of Drosophila melanogaster with 42 samples.

Results

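The broad MSL3 domains of the male X chromosome were defined as the X-linked records of the MSL3 peak list from M1[WT] males that spanned 4000 bp or more. The rule found 271 domains among the 1829 X-linked MSL3 records of that list, and the remaining 1558 records are called narrower here. The list held 6129 records on all chromosomes. The domains were thus chosen by a measured value, the width of the male MSL3 peak, and their own male MSL3 values are given as a description only. The measurements that the rule did not use are the MSL1 and MSL2 peaks of males and the MSL1, MSL2 and MSL3 peaks of females.

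The series is a ChIP-seq study of *Drosophila melanogaster* in which MSL1 variants were expressed from transgenes, and 6 of its peak lists, made from 11 libraries, were used. Chromatin came from 3-day-old adult flies according to the sample labels. M1[WT]+MSL2 females had the genotype msl-1-; Ubi:msl-2WT-FLAG/Ubi:msl-1WT, and M1[WT] males were msl-1-; Ubi:msl-1WT/Ubi:msl-1WT. In both lines msl-1- stands for the null combination msl-1[γ269]/msl-1[L60], so that MSL1 came only from transgenes under the strong and broadly active Ubi-p63E promoter. Females of this line thus carried MSL2, which normal females lack, together with a wild-type MSL1 transgene. For MSL3 in males the genotype label names M1[wt]_M2, whereas the sample titles and the methods name M1[wt], which was followed. Each of these 6 lists rests on 2 libraries except that of MSL1 in males, which rests on 1. The IgG libraries of the series came from control flies without transgenes, 1 from males and 2 from females. One peak list exists for each protein and sex, so no replicate error can be attached to any share below. The 95% intervals are Wilson intervals for shares and Newcombe intervals for differences, they cover counting error across regions only, and regions of one chromosome share their libraries.

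In *Drosophila* males the MSL complex raises transcription of the single X chromosome. It contains the proteins MSL1, MSL2, MSL3, MOF and MLE and the noncoding RNAs roX1 and roX2. MSL1 is the scaffold, MSL2 binds DNA at GA-rich elements within high-affinity sites (HAS) of the X, MOF acetylates histone H4 at lysine 16, and MSL3 carries a chromodomain that binds histone H3 methylated at lysine 36, a mark of the transcribed bodies of genes. In females the protein Sex-lethal blocks translation of msl-2 mRNA, and the complex does not form.

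The sequence at the strongest male MSL2 summit was read for selected domains, because MSL2 is the DNA-binding subunit. The windows are 101 bases long, on the plus strand of dm6 (RefSeq Release 6), with the summit in the middle. Capitals mark GAGAG or CTCTC, the same 5 letters on either strand, and longer alternations up to their outermost G or C. An A or T that continues the alternation beyond these letters stays in lower case, as in the roX2 window. The first pair lies in the neighbouring domains named here after arm and Gcna, the second in the roX1 and roX2 genes, and the last pair, in the pcm and HUWE1 domains, holds no such run. The windows read in the Cubn, CG3815 and mof domains also held no such run and are not shown. Those of the nocte and HERC2 domains held such runs but lay in UTRs and are not printed.
arm domain, intron, chrX:1893665-1893765: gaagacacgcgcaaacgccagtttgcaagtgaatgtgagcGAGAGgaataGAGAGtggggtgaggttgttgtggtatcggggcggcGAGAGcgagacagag
Gcna domain, intron, chrX:1859953-1860053: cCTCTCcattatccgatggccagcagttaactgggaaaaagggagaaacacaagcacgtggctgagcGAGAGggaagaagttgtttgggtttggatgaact
roX1 domain, noncoding exon, chrX:3861286-3861386: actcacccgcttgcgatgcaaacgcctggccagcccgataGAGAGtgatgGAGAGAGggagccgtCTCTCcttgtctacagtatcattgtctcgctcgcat
roX2 domain, noncoding exon, chrX:11580199-11580299: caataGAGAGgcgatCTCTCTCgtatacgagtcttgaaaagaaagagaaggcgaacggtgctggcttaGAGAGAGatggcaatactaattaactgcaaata
pcm domain, intron, chrX:19490027-19490127: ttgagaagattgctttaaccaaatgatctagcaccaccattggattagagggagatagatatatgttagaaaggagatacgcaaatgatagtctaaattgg
HUWE1 domain, coding sequence, chrX:15730745-15730845: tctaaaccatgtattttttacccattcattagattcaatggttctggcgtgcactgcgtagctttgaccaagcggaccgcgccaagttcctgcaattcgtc

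The run of capitals was not a general property of these summits. It was present in 99 of the 257 windows at the strongest male MSL2 summit of a domain (38.5%, 95% interval 32.8 to 44.6), against 11.4% of 233091 windows of the same length tiled over the whole X. Over all 587 male MSL2 summits inside domains the share was 23.9% (20.6 to 27.5), and over the 1190 inside narrower records it was 26.1% (23.6 to 28.6). The intervals of domains and narrower records overlapped. Windows tiled over the domains themselves held the run in 12.4% of cases, close to the level of the whole X.

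The domains were 4000 to 26305 bp wide, with a median of 5949 bp. In all, 26 were 10000 bp or wider and 9 were 15000 bp or wider. They made up 14.8% of the X-linked MSL3 records and 45.9% of the X bases inside such records, or 7.83% of the chromosome. They were spread along the X, with 2 to 25 domains in each whole 1 Mb bin (median 11). Off the X, 71 of 4300 MSL3 records (1.65%) reached the same width. Records of 4000 bp or more on the X numbered 85 for MSL1 and 98 for MSL2 in males, and 35, 5 and 27 for MSL1, MSL2 and MSL3 in females. Both peak calls that were compared for reproducibility gave a width of 4000 bp or more in 233 domains, whereas in 8 domains neither did.

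At the summit, MSL3 fold enrichment over IgG ranged from 2.76 to 51.1 in domains (median 13.3), and its median was 4.51 in narrower records. The highest value belonged to the roX1 domain. The domains were therefore both wider and more enriched, and part of every contrast with narrower records runs along enrichment as well as width. Just inside the limit lay the domains of ZAP3 (4000 bp), CG14778 (4002 bp) and Pat1 (4009 bp), with MSL3 enrichments of 7.44, 7.56 and 9.64. Just outside lay DNAlig4 (3997 bp), Gga (3996 bp) and CkIalpha (3975 bp), with MSL3 enrichments of 10.6, 11.2 and 11.3. The limit is thus not a break in the data. No domain touched another MSL3 record, but 171 had one within 500 bp and 227 had one within 1000 bp.

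MSL1 of males was found in every domain. A male MSL1 summit lay inside 271 of 271 domains (100%), against 1384 of 1558 narrower records (88.8%), a difference of 11.2 percentage points (95% interval 9.14 to 12.8). Over all X-linked MSL3 records the share was 90.5%, which leaves little room above it. Domains contained 802 male MSL1 summits, from 1 to 10 each with a median of 3. The male MSL1 list was made from 1 library, lacks the columns of the reproducibility step, and holds 4317 X-linked records, more than any other list.

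MSL2 of males had a summit in 257 domains (94.8%), against 1043 narrower records (66.9%), a difference of 27.9 points (23.9 to 31.0). The share over all X-linked MSL3 records was 71.1%. In total, 587 male MSL2 summits lay inside domains, at most 7 in a domain and 2 at the median. Of the domains, 14 had none and 89 had 3 or more. Records of male MSL1 covered a median of 82.3% of the bases of a domain and records of male MSL2 a median of 75.3%. In males the MSL3 domains thus mostly coincided with long or closely spaced MSL1 and MSL2 records. High cover was not particular to domains, as the medians in narrower records were 73.4% for male MSL1 and 71.1% for male MSL2.

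A wide record can hold more summits than a narrow one. Per kb, domains held fewer male summits than narrower records did, 0.435 against 0.833 for MSL1 and 0.319 against 0.547 for MSL2. A window of 500 bp on each side of the male MSL3 summit was therefore searched too, the same size for every record. The male MSL3 summit lay within 500 bp of an edge in 1101 narrower records (70.7%) and 20 domains (7.38%). There the window could take in summits outside the record. In this window a male MSL1 summit was present for 76.4% of domains and 81.0% of narrower records. This difference of -4.62 points (-10.3 to 0.47) was not distinguishable from zero. The background over all X-linked records was 80.3%. For male MSL2 the same window gave 57.2% of domains and 55.2% of narrower records, a difference of 2.00 points (-4.44 to 8.26) with a background of 55.5%. These 2 values depended on which peaks of the male lists were counted. In the same window, lists cut to the length of the shortest one (905 peaks) gave differences of 30.5 points (24.4 to 36.7) for male MSL1 and 15.7 points (10.5 to 21.5) for male MSL2. The stronger 50% of each list gave 1.83 points (-4.01 to 7.07) for male MSL1 and 14.4 points (8.19 to 20.7) for male MSL2. With an equal length searched, the full male lists thus showed no excess in domains, whereas the shortened lists did for both proteins and the stronger 50% did for MSL2.

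**Figure D1:**
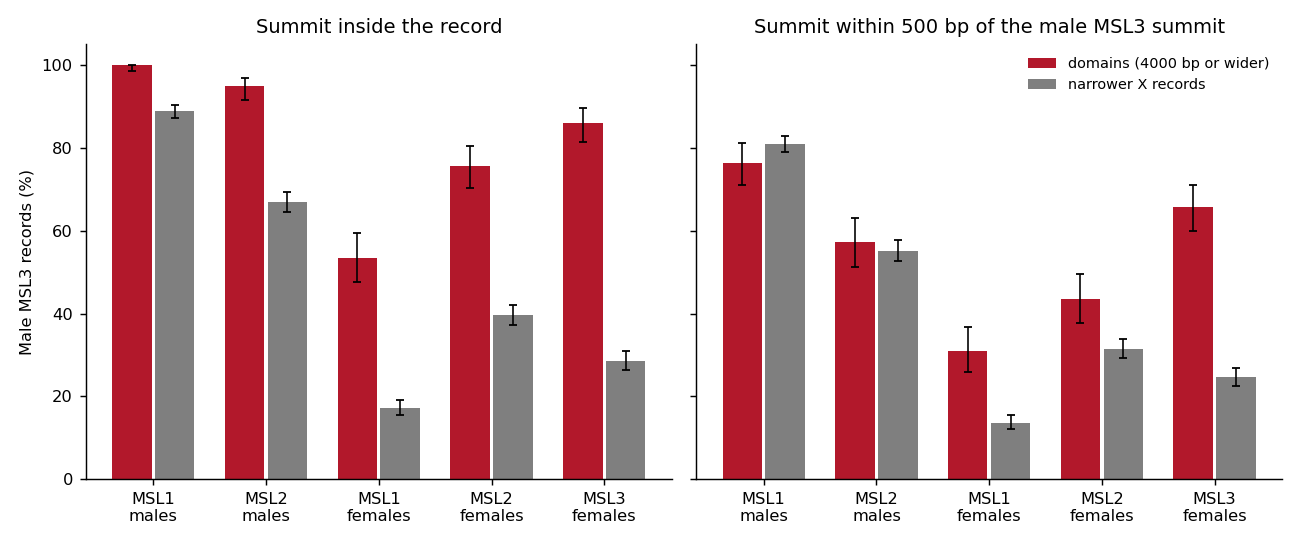
Percentage of male MSL3 records with a summit of each list (bars with 95% Wilson intervals), for 271 domains (red) and 1558 narrower X records (grey). With the whole record searched (left) domains are higher for all 5 lists, and within 500 bp of the male MSL3 summit (right) they are higher for the 3 female lists, whereas the intervals of the 2 male lists overlap.

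A larger share of domains than of narrower records held a female summit, for all 3 proteins. A female MSL3 summit lay inside 233 domains (86.0%), against 445 narrower records (28.6%), a difference of 57.4 points (52.2 to 61.7) with a background of 37.1%. A female MSL2 summit lay inside 205 domains (75.6%), against 617 narrower records (39.6%), a difference of 36.04 points (30.1 to 41.3) with a background of 44.9%. A female MSL1 summit lay inside 145 domains (53.5%), against 269 narrower records (17.3%), a difference of 36.2 points (30.0 to 42.4) with a background of 22.6%. All 3 shares in domains exceeded their backgrounds. Per kb, female MSL1 summits were at 0.112 in domains and 0.129 in narrower records, and female MSL2 summits at 0.268 in domains and 0.336 in narrower records. Female MSL3 summits were at 0.291 per kb in domains and 0.241 in narrower records, so that of the female lists only MSL3 was denser in domains.

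The differences in share were smaller in the equal window but still above zero. Within 500 bp of the male MSL3 summit a female MSL3 summit was found in 65.7% of domains, against 24.6% of narrower records, a difference of 41.1 points (34.9 to 46.9) with a background of 30.7%. For female MSL1 the shares were 31.0% of domains and 13.7% of narrower records, a difference of 17.3 points (11.8 to 23.3) with a background of 16.2%. For female MSL2 they were 43.5% and 31.5% in the same order, a difference of 12.03 points (5.80 to 18.4) with a background of 33.3%. The difference between proteins was not tested, and the 3 female lists differ in length.

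Enrichment was then held more nearly equal, in an alternative chosen after the data were seen. Among records with a male MSL3 enrichment of 10-fold or more, there were 182 domains (median enrichment 16.96) and 184 narrower records (median 12.9). The male differences disappeared, but male shares were 97.8% or more on both sides, which left little room for a difference. A male MSL1 summit was present in 182 of these domains and in 182 of the narrower records, a difference of 1.09 points (-1.13 to 3.88), and a male MSL2 summit in 180 of each, a difference of 1.08 points (-2.04 to 4.45). For female MSL2 the shares were 86.3% of domains and 79.9% of narrower records, a difference of 6.37 points (-1.35 to 14.0) that also included zero. Female MSL1 remained higher in domains, at 70.3% against 50.5%, a difference of 19.8 points (9.79 to 29.2). Female MSL3 did as well, at 97.8% against 87.0%, a difference of 10.8 points (5.56 to 16.6). Domains of this subset were still more enriched at the median than the narrower records, and the part of enrichment in what remained was not tested. Within 500 bp of the male MSL3 summit this subset gave no female difference that excluded zero, with 3.74 points (-6.32 to 13.7) for MSL1, -3.20 (-13.2 to 6.87) for MSL2 and 0.30 (-8.20 to 8.79) for MSL3. Male MSL1 was lower in domains there, by -8.93 points (-16.7 to -1.13), and male MSL2 differed by -8.52 points (-17.7 to 0.85). With the same floor on enrichment and the same length searched, domains thus exceeded narrower records beyond counting error for none of the 5 lists.

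Combinations of female proteins showed the same order. Records of all 3 female proteins overlapped 138 domains (50.9%), against 152 narrower records (9.76%), with a background of 15.9%. No female record overlapped 21 domains (7.75%), against 759 narrower records (48.7%), with a background of 42.6%. Between these, 52 domains had MSL2 and MSL3 without MSL1, 39 had MSL3 alone, 14 had MSL2 alone and the remaining 7 had MSL1 without at least 1 of the others. The 21 domains without a female record were less enriched for male MSL3 (median 5.19) than the 250 domains with one (median 13.9).

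Most domains had female records, but these records left a large part of the domain uncovered. Female MSL3 covered a median of 48.2% of a domain, female MSL2 27.2% and female MSL1 6.66%. Narrower records were covered less. Of all their bases, female MSL3 covered 45.7% in domains and 20.8% in narrower records. For female MSL2 these shares were 28.1% and 22.5%, and for female MSL1 25.1% and 12.7%. Female MSL3 records with a summit in a domain had a median width of 1213 bp, and a domain contained 2 of them at the median and up to 8. Female MSL2 records with a summit in a domain had a median width of 806 bp, and female MSL1 records 1669 bp, against 1271 bp for male MSL1 records in domains. Female records with a summit elsewhere on the X were narrower, with medians of 668 bp for MSL3, 480 bp for MSL2 and 715 bp for MSL1. The strongest female MSL3 record of a domain had an enrichment of 1.74 to 17.1 (median 2.60), and in 0 of 233 domains did it exceed the male MSL3 enrichment. Enrichments of different libraries are each relative to IgG and are not on a common scale.

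**Figure D2:**
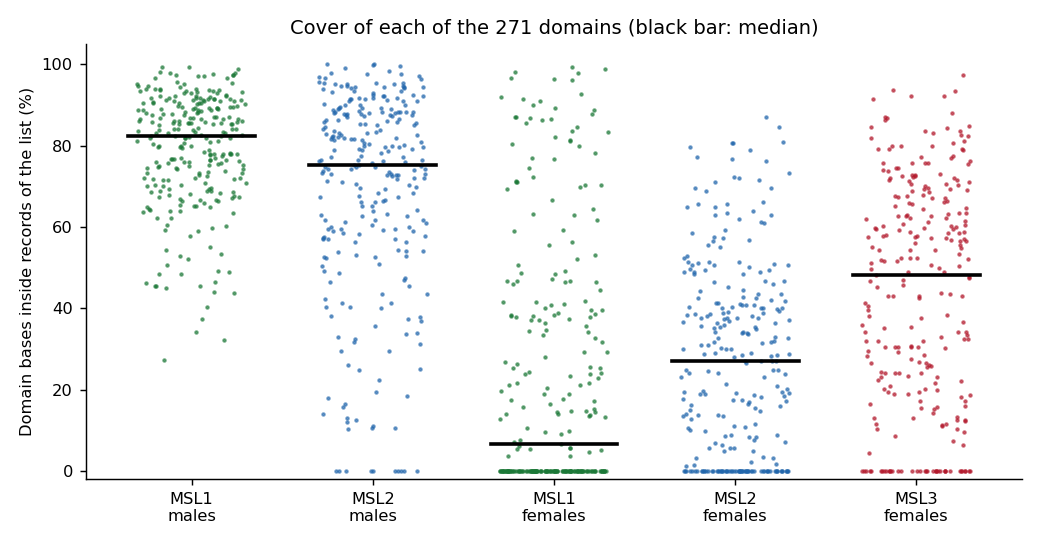
Percentage of the bases of each domain that lies inside records of each list, with 1 point per domain (271 per list, spread sideways at random) and the median as a black bar. Male MSL1 and MSL2 cover most of a typical domain (medians 82.3% and 75.3%), female MSL3 covers 48.2% and female MSL1 6.66%.

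How near female summits inside domains lay to male summits of the same protein differed between proteins. The lists also differed in length, with 4317 X-linked records for male MSL1 and 2351 for male MSL2. Those of females held 522 for MSL1 and 1577 for MSL2. The part of list length in the values below was not tested. A male MSL1 summit was within 500 bp of 177 of 207 female MSL1 summits in domains (85.5%, 80.1 to 89.7) and of 245 of 280 in narrower records (87.5%). A male MSL2 summit was within 500 bp of 257 of 494 female MSL2 summits in domains (52.0%, 47.6 to 56.4), against 494 of 732 in narrower records (67.5%, 64.0 to 70.8). The narrower records themselves limit how far apart summits inside them can lie. The median distance from a female MSL1 summit in a domain to the nearest male MSL1 summit was 34 bp, and that from a female MSL2 summit to the nearest male MSL2 summit was 414 bp. Female MSL3 summits in domains were a median of 1198 bp from the nearest male MSL3 summit, and 179 of 537 (33.3%) lay within 500 bp of the summit of their own domain, which has only 1. A male MSL1 summit was within 500 bp of 347 of these 537 (64.6%, 60.5 to 68.5).

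The place of summits in the domain also differed between proteins. If summits were spread evenly, 50% would lie in the central 50% of the domain and 20% in the outer 10% at both ends together. Male MSL1 summits were in the central part in 43.5% of cases (40.1 to 47.0, n = 802) and in the outer parts in 27.4% (24.5 to 30.6). Male MSL2 summits gave 45.1% (41.2 to 49.2, n = 587) in the central part and 28.3% (24.8 to 32.1) in the outer parts. In the full lists both were thus found at the ends of domains more often than an even spread would give. With lists of equal length this was lost, as 52.1% (46.3 to 57.9) of male MSL1 and 51.5% (43.97 to 59.0) of male MSL2 summits were then in the central part. The female lists are shorter than the male ones, and the part of list length in the contrast with them was not tested. Female MSL1 and MSL2 summits were close to even, with 48.8% (42.1 to 55.6) and 47.6% (43.2 to 52.0) in the central part, and female MSL3 summits were more central, with 54.6% (50.3 to 58.7, n = 537). The male MSL3 summit, which belongs to the record that set the edges, was central in 57.6% of domains.

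The strongest summits were not depleted from the central part. When only the strongest male MSL1 summit of each domain was kept, 54.2% (48.3 to 60.1, n = 271) were in the central 50%, and for male MSL2 50.6% were (44.5 to 56.6, n = 257). Both intervals included the 50% of an even spread. The strongest male MSL1 summit was a median of 451 bp from the male MSL3 summit, within 500 bp in 138 of 271 domains. The strongest male MSL2 summit was a median of 789 bp away, within 500 bp in 108 of 257 domains, so that the peaks of MSL2 and MSL3 were often separate points of the same domain.

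**Figure D3:**
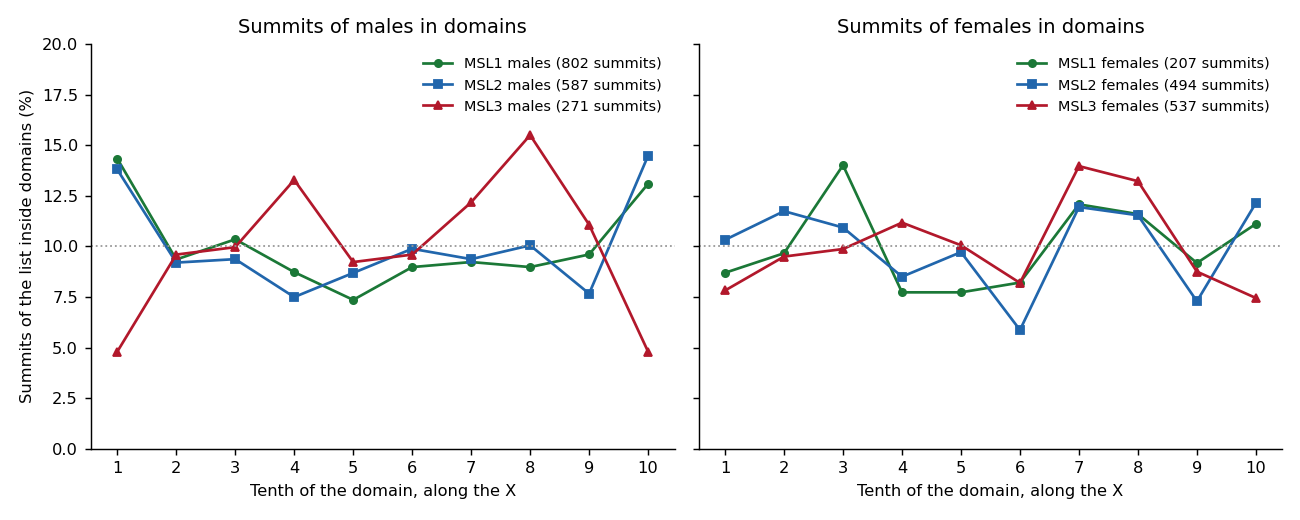
Percentage of the summits of each list in each 10% of the domain length, from the left to the right end along the X, for males (left) and females (right). The dotted line at 10% marks an even spread. Male MSL1 and MSL2 are highest in the outermost bins, and male MSL3 is lowest there.

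HAS, the sites at which the complex is thought to enter the X, were found in a larger share of domains than of narrower records. The positions are 301 X-linked sites that the study compiled from earlier publications. A HAS lay inside 136 domains (50.2%, 44.3 to 56.1), against 104 narrower records (6.68%, 5.54 to 8.02), a difference of 43.5 points (37.4 to 49.5) with a background of 13.1%. Per kb, HAS were at 0.0863 in domains and 0.0501 in narrower records. Domains held 159 of the 301 HAS (52.8%), narrower records 109, and 33 lay in no male MSL3 record. Among records of 10-fold enrichment or more the shares were 67.6% of domains and 34.8% of narrower records, a difference of 32.8 points (22.7 to 41.9). These domains were still wider, with a median width of 6284 bp against 2448 bp. HAS were not counted in a window of equal length, and the part of width in this difference was not tested. In domains, 88 of the 159 HAS (55.3%, 47.6 to 62.9) were in the central 50%, and 132 (83.02%) had a male MSL2 summit within 500 bp, against 72 (45.3%) that had a female MSL3 summit at that distance.

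Among domains, female MSL1 was found mainly in those with a HAS. A female MSL1 summit lay inside 119 of 136 domains with a HAS (87.5%, 80.9 to 92.0), against 26 of 135 without (19.3%, 13.5 to 26.7). For female MSL2 the shares were 95.6% with a HAS and 55.6% without, and for female MSL3 97.1% with and 74.8% without. Male MSL2 was present in 100% of domains with a HAS and 89.6% of those without. Domains with a HAS were wider (median 6418 against 5570 bp) and more enriched for male MSL3 (median 18.5 against 9.54), and the part of either in these differences was not tested.

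**Figure D4:**
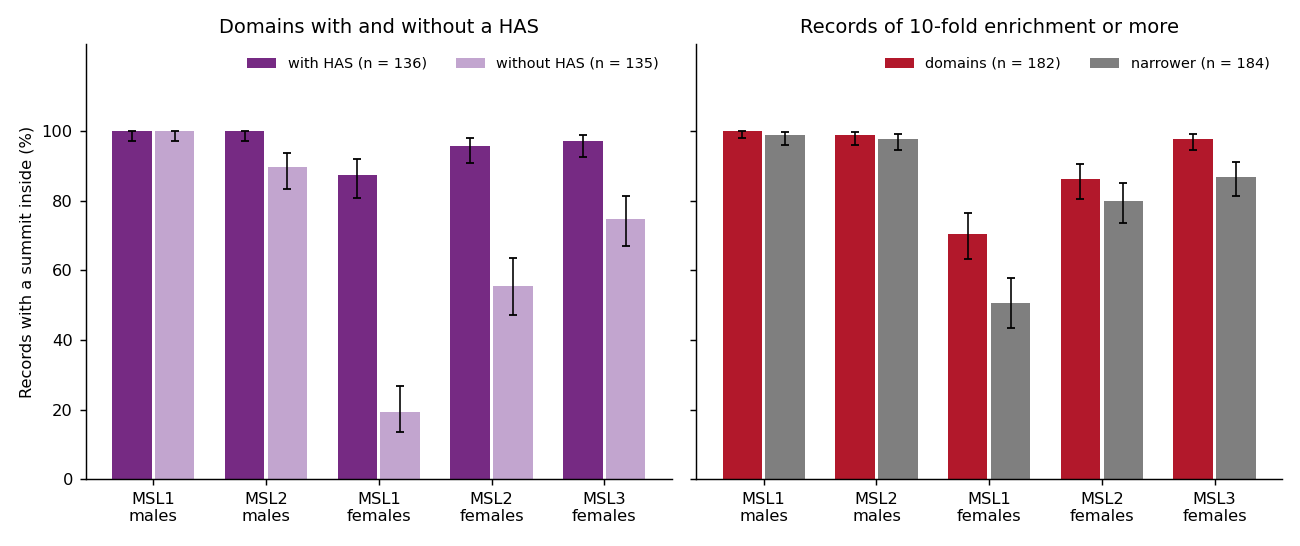
Percentage of records with a summit of each list inside (bars with 95% Wilson intervals). The left panel sets domains with a HAS (dark) beside domains without (light), and female MSL1 shows the widest gap, 87.5% against 19.3%. The right panel sets domains (red) beside narrower records (grey) of 10-fold MSL3 enrichment or more, where male MSL1 and MSL2 are near 100% in both.

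Domains lay over genes, and over their exons above all. Exons of the Ensembl annotation of dm6 took up 81.7% of domain bases, against 75.9% of narrower bases and 33.2% of the X. Coding sequence alone took up 63.4% of domain bases, 54.6% of narrower bases and 16.7% of the X. Every domain overlapped a gene, 104 overlapped exactly 1, and the largest number was 8. The male MSL3 summit lay in coding sequence in 245 domains (90.4%, 86.3 to 93.4), against 943 narrower records (60.5%, 58.1 to 62.9). It lay in an exon of any kind in 97.05% of domains, against 75.7% of narrower records, a difference of 21.4 points (17.9 to 24.0). The summit was within 500 bp of an annotated start site in 9 domains (3.32%), against 359 narrower records (23.0%). In 191 of the 268 domains whose summit fell in a protein-coding gene (71.3%, 65.6 to 76.4), it was in the later 50% of that gene, against 811 of 1420 narrower records (57.1%, 54.5 to 59.7).

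Subunits differed in this respect within the same domains. Coding sequence held 84.7% of the 537 female MSL3 summits, 70.4% of the 802 male MSL1 summits, 65.4% of the 494 female MSL2 summits, 56.4% of the 587 male MSL2 summits and 45.9% of the 207 female MSL1 summits. As a background, coding sequence took up 63.4% of domain bases, introns 15.9% and 3' UTRs 11.6%. Male MSL2 summits were in introns in 14.8% of cases and in 3' UTRs in 13.3%, both close to that background. Start sites within 500 bp were found for 23.5% of male MSL2 summits in domains, against 36.1% in narrower records, and for 19.8% of female MSL1 summits in domains, against 47.9% in narrower records. Summits of MSL3 in domains thus lay within coding sequence more often than those of its partners in both sexes. For males this sets 1 MSL3 summit per domain, that of the record itself, against all MSL1 and MSL2 summits. In narrower records the male order of MSL3 and MSL1 was the other way, with 60.5% for MSL3 and 64.1% for MSL1.

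GA repeats were more frequent at MSL1 and MSL2 summits of both sexes than along the X, in domains as in narrower records. A repeat was taken as 8 alternating G and A bases, or C and T on the other strand (GAGAGAGA, AGAGAGAG, TCTCTCTC or CTCTCTCT), within 100 bp of the summit. It was found in 1.97% of windows of the X and 1.69% of windows tiled over domains. Male MSL2 summits held it in 11.4% of cases in domains (9.09 to 14.2) and 12.02% in narrower records (10.3 to 14.0). With lists of equal length the share of male MSL2 summits in domains was 31.1% (24.6 to 38.5). Male MSL1 summits held it in 6.86% in domains (5.31 to 8.82) and 7.39% in narrower records (6.27 to 8.69). Female MSL1 summits held it in 17.9% in domains (13.3 to 23.7) and 20.7% in narrower records (16.4 to 25.9), and female MSL2 summits in 9.51% and 10.7% in the same order. Male MSL3 summits held it in 2.95% of domains (1.50 to 5.72), against 7.57% of narrower records (6.36 to 8.99). A match to these letters is a description of the sequence and not a measure of binding.

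The widest domain shows these features in a single region. It spanned chrX:1873856-1900160 (26305 bp) over 8 genes, among them arm, the *Drosophila* β-catenin, trr, a histone H3 lysine 4 methyltransferase, and Vps26, a subunit of the retromer. It contained 3 HAS, 10 male MSL1 summits, 7 male MSL2 summits and 25 female summits (5 of MSL1, 12 of MSL2 and 8 of MSL3), the highest number for male MSL1, for male MSL2 (shared with PhKgamma) and for females. Its male MSL3 summit, with an enrichment of 44.8, lay over Coa8. The strongest male MSL2 summits had enrichments of 55.2 and 68.2, the higher one at the arm intron shown above, and both were also the strongest points of male MSL1 (32.1 and 44.4), female MSL1 (14.4 and 11.6) and female MSL2 (14.7 and 13.1). The other male MSL2 summits had enrichments of 2.25 to 9.74. A gap of 302 bp separated this domain from the Gcna domain (chrX:1856997-1873553, 16557 bp). The peak calls compared for reproducibility gave narrower widths for both, 16367 and 20292 bp for arm and 8658 and 4992 bp for Gcna. The full extent of these domains was thus in neither call. For each of the remaining widest domains named below, both calls gave 15389 bp or more.

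**Figure D5:**
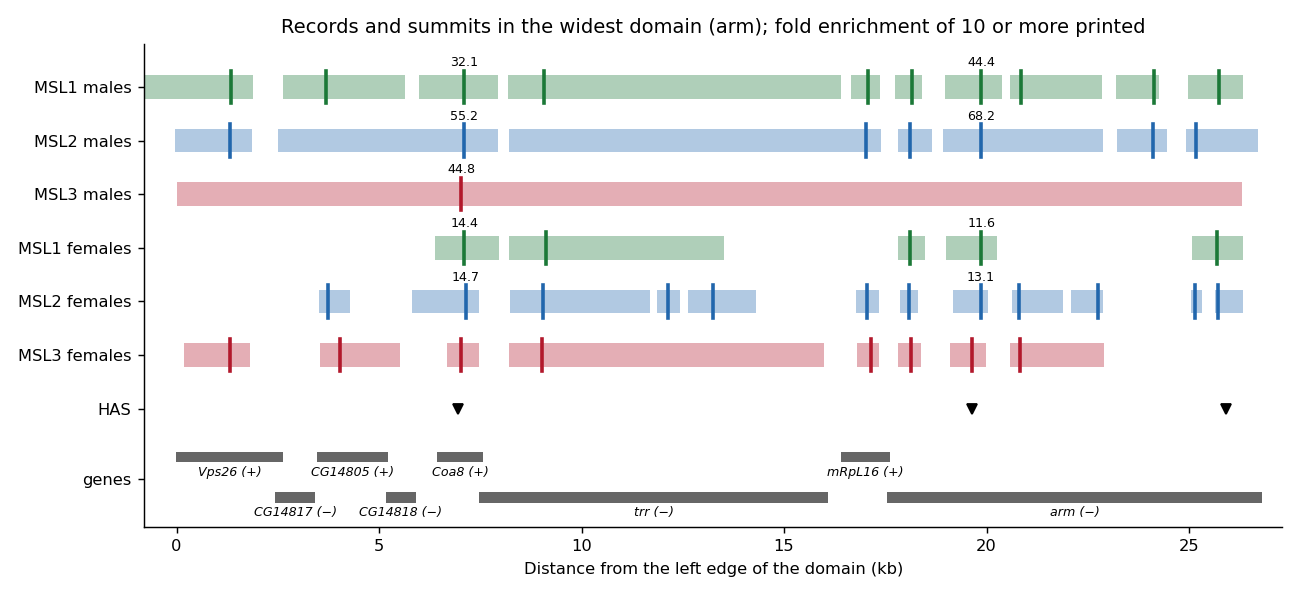
Records (bars) and summits (vertical lines) of the 6 lists in the widest domain, with HAS (triangles) and annotated genes with their strand, against the distance in kb from the left edge of the domain. Enrichments of 10 or more are printed above the summits, and in males and females they fall at the same points near 7 and 20 kb.

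The other widest domains carried names of varied function. The pcm domain (18940 bp), around a gene for a 5' to 3' exoribonuclease, held 4 male MSL2 and 13 female summits. The HUWE1 domain (18807 bp) lay in 1 gene, a ubiquitin ligase, with 3 male MSL2 and 8 female summits. The nocte domain (17718 bp), named for a gene of clock resetting by temperature, held 3 HAS, 4 male MSL2 and 20 female summits. The Cubn (17056 bp), CG3815 (16710 bp), Gcna (16557 bp) and HERC2 (15794 bp) domains each held 1 HAS, with 13, 13, 6 and 4 female summits. In these 8 domains female MSL3 covered from 25.8% (Gcna) to 83.6% (HUWE1), although male MSL2 covered 87.5% of the Gcna domain and 59.5% of the HUWE1 domain.

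Domains with many summits were not always the widest. PhKgamma, the catalytic subunit of phosphorylase kinase, lay in a domain of 10877 bp with 8 male MSL1, 7 male MSL2 and 16 female summits, and its strongest female MSL3 record (17.1) was the highest of any domain. The compared peak calls gave the PhKgamma domain widths of 10862 and 4242 bp. The rictor domain (8765 bp), named for a component of TOR complex 2, held 6 male MSL2 summits with enrichments up to 4.86, no HAS, no female MSL1, and 6 female summits. The CG12236 domain (10779 bp) held 8 male MSL1, 5 male MSL2 and 12 female summits.

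At the opposite end were domains with few partners. The widest of the 14 domains without a male MSL2 summit were those of Fur2, a furin-type protease (6472 bp, MSL3 enrichment 13.2), Abca3, an ABC transporter (5993 bp, 3.94), and hiw, a ubiquitin ligase of synapses (5807 bp, 3.34). They held 1, 4 and 5 male MSL1 summits, and 2, 0 and 1 female summits, all of MSL3. The widest of the 21 domains without any female record were those of mei-41, the ATR kinase (7748 bp, 4.67), C3G, an exchange factor for Rap1 (7503 bp, 9.73), and shtd, a subunit of the anaphase-promoting complex (6585 bp, 8.25). They held 1, 4 and 2 male MSL2 summits, with enrichments of at most 2.16, 2.32 and 2.23. None of these 6 domains held a HAS.

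Of 17 well-known X-linked genes named whatever their values, 7 overlapped a domain, 8 overlapped narrower records only and 2 overlapped no male MSL3 record. The domains were those of roX1, roX2, mof (the acetyltransferase of the complex), Pgd (6-phosphogluconate dehydrogenase), arm, Polr2A (the largest subunit of RNA polymerase II) and per (a clock gene). In the roX1 domain (4271 bp) there was 1 summit of each list, with enrichments of 178 for male MSL1, 219 for male MSL2, 45.1 for female MSL1, 64.4 for female MSL2 and 5.07 for female MSL3. In the roX2 domain (8461 bp) the strongest summits had enrichments of 40.9 and 71.2 for male MSL1 and MSL2, and 37.8, 24.1 and 4.50 for female MSL1, MSL2 and MSL3. Pgd, Polr2A and per had no HAS and no female MSL1 in their domains, and their strongest male MSL2 enrichments were 6.11, 8.08 and 2.01. Zw (glucose-6-phosphate dehydrogenase), sqh, Act5C, Hsc70-3, N (Notch), v, f and Sxl overlapped only narrower records, and w and y overlapped none.

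Wider domains more often held a HAS and female summits. A HAS was inside 31 of 82 domains of 4000 to 5000 bp (37.8%), and inside 19 of 26 domains of 10000 bp or more (73.1%). A female MSL1 summit was inside 36.6% of the narrowest class and 80.8% of the widest, and a female MSL3 summit inside 80.5% of the narrowest and 92.3% of the widest. Per kb, female MSL1 summits were at 0.103 in the narrowest class and 0.112 in the widest, and male MSL2 summits were at 0.351 in the narrowest and 0.250 in the widest. Female MSL2 summits fell from 0.261 to 0.242 per kb and female MSL3 summits from 0.314 to 0.250. The rise in shares thus went with greater length and, except for female MSL1, not with a higher density of the summits given here. The median male MSL3 enrichment was 11.5 in the narrowest class and 19.5 in the widest. No test was made on these classes, because width chose the domains.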

How the data were processed

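For each MSL protein the authors deposited 1 peak list per sex, from M1[WT]+MSL2 females and from M1[WT] males. The authors trimmed reads with cutadapt, aligned them with Bowtie2 to dm6, called peaks with MACS2 against IgG from control flies, and kept the optimal set of the irreproducible discovery rate (IDR) procedure. The male MSL1 list has the 10 columns of MACS2 and the others the 20 of IDR. The deposited columns hold a display score, the fold enrichment at the summit (a ratio over IgG), and the −log10 p-value. Enrichments are not comparable between libraries beyond this ratio. Read depth is not in the lists and is unknown here, and a site absent from a list was not called rather than unbound.

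The starts and summits of records were read with Python 3 scripts (pandas, numpy, scipy), and a summit was the start of a record plus its offset. The domains and lists were chosen with earlier results of these data known. Domains were named after the gene with the longest overlap. The domains named in the text followed a rule, namely the 8 widest, the 3 with the most male MSL2, male MSL1 or female summits, the 3 widest without a male MSL2 summit or without a female record, the 3 on each side of the width limit, and 17 listed genes. Annotation came from Ensembl release 115 and sequence from RefSeq Release 6, both on dm6 coordinates. Sequence windows overlapping UTRs were not printed. Counting functions were tested on 40 simulated interval sets and matched direct counts in all 40. No test across replicates was possible. Libraries of the other conditions of the series were not analysed here.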

Additional observations from a re-analysis of the deposited data

How the results depend on the processing

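No paired analysis was possible because each condition has a single peak list, which pools its libraries or holds 1 library, and for the same reason no library could be left out. Joining records that overlap or touch could change no value, because the smallest gap between X-linked male MSL3 records was 219 bp. Its differences, equal to the main ones, are part of the count that follows. All 64 differences between domains and narrower records in summits inside them, HAS and exons were above zero under the alternatives. Of these, 61 had an interval above zero. A wider record holds a summit or HAS more often by its length alone, so the sign of those differences says little about robustness. Differences in the window of 500 bp around the male MSL3 summit are not in this count, and some of them were below zero. With the width limit at 3000 bp (417 domains) the difference was 35.8 points for HAS, 28.8 for female MSL1 and 51.4 for female MSL3, and at 5000 bp (189 domains) it was 42.6 for female MSL1. With the stronger 50% of peaks of each list the difference was 18.5 points for male MSL1, 42.7 for male MSL2 and 42.8 for female MSL3, and 17.8% of male MSL2 summits in domains had a GA repeat. With lists of equal length (905 peaks) it was 48.8, 39.4 and 46.0 points for male MSL1, male MSL2 and female MSL3, 52.1% of male MSL1 and 51.5% of male MSL2 summits were in the central 50%, and 31.1% of male MSL2 summits had a GA repeat. A repeat of 10 bases lowered that share to 6.13%. Counting peaks within 500 bp of a record gave differences of 8.22 points for male MSL1 and 19.6 for male MSL2. Keeping the strongest summit of each domain put 54.2% and 50.6% of male MSL1 and MSL2 summits in the central part, and 25.4% and 27.8% of all their summits lay within 1000 bp of the domain centre, a narrower target in most domains. Of 3 settings added after the data were seen, joining records within 500 bp gave 335 domains and 43.4 points for female MSL1, and requiring 4000 bp in both IDR inputs left 233 domains and moved none of these. Limiting both sides to 10-fold enrichment or more gave differences of 1.09 and 1.08 points for male MSL1 and MSL2, 19.8, 6.37 and 10.8 for female MSL1, MSL2 and MSL3, 32.8 for HAS and 14.1 for exons at male MSL3 summits. In the window of 500 bp around the male MSL3 summit that limit turned the female MSL2 difference to -3.20. The cause of these shifts was not tested. The number of reads behind the peaks is unknown, so a site missing from a short list may lie below its threshold.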
